A study of Mus musculus with 24 samples.

Results

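Hypothalamic gene expression was compared between overfed mice that had stopped receiving the diet 3 days earlier and overfed mice killed at the end of the overfeeding period. The comparison used 12 of 24 RNA-seq libraries, 6 from each day, chosen by their labels for diet and day and not by any measured value. All mice were male C57BL6/J animals, which were 18 weeks old, had free access to chow and carried a gastric catheter. Experimentally overfed (ExpOF) mice were given a sugar-enriched nutrition drink through the catheter, which came to 150% of the usual energy intake at day 9. The ExpOF d14 mice were killed on day 14. The ExpOF d14+3 mice were infused with water alone from day 14 and were killed on day 17, in the recovery period. According to the paper, overfed lean mice stopped eating chow during overfeeding, and their intake stayed low for several days after it ended. The Control d14 and Control d14+3 mice received sterile water throughout at the same flow rates and were treated alike otherwise. Each library came from the dissected hypothalamus of 1 mouse and different mice were killed on the 2 days, so the comparison is between animals and not within them.

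The hypothalamus senses stored and incoming energy and sets food intake. In its arcuate nucleus, neurons that make agouti-related peptide and neuropeptide Y promote eating, while neurons that make pro-opiomelanocortin and CART restrain it. Leptin from fat tissue acts on both through its receptor and the transcription factor STAT3, and the melanocortin 4 receptor on neurons of the paraventricular nucleus receives their opposing signals. The thalamus lies directly above the hypothalamus in the brain, so where the tissue is cut decides how much of it a hypothalamic sample holds.

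Between 8928182 and 33217143 reads per ExpOF library were assigned to genes (median 23002523.5), and total counts did not separate the days (exact two-sided permutation test, p = 0.963). The RNA integrity number was 9.75 ± 0.138 at d14 and 9.43 ± 0.45 at d14+3 (SD, n = 6 each), with an exact permutation p of 0.182, where 6 against 6 libraries allow no p below 0.00216. Several Control libraries, more of them at d14+3 than at d14, had a lower RNA integrity number than any ExpOF library, which limits the Control comparison below. Each day held 3 mice killed in July and 3 killed in September, and 3 libraries from each of 2 extraction rounds. Transcripts that define the hypothalamus were present at both days. Nkx2-1, a factor that patterns the ventral forebrain, had between 14.6 and 18.9 CPM (read counts scaled to the size of the library) at d14 and between 9.72 and 16.9 at d14+3, and Hcrt, the orexin precursor made in the lateral hypothalamus, had at least 52.9 CPM in each ExpOF library. Control d14 replicate 4 was left out, so the model held 23 libraries.

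No gene passed the test between d14 and d14+3 in the overfed mice. Across 18992 genes, edgeR's quasi-likelihood test called 0 (0%) at an adjusted p under 0.05, with the smallest adjusted p at 0.0677. At an unadjusted p under 0.05 the count was 1479 genes (7.79%), of which 1024 (5.39%) were higher and 455 (2.40%) were lower at d14+3. The absence of calls depended on the libraries that shared the model. When the spread between libraries was estimated from the 12 ExpOF libraries alone, 123 of 17894 genes (0.687%) passed, of which 120 rose (0.671%) and 3 fell (0.0168%). DESeq2 on the 23 libraries called 202 genes, 186 higher and 16 lower. In the model of 23 libraries, 157 genes passed without ExpOF d14+3 replicate 3 and 87 without ExpOF d14 replicate 4, and up to 57 without single Control libraries. In 158 genes (0.832%) the 6 libraries of d14 and the 6 of d14+3 did not overlap at all, 120 with the higher values at d14+3 (0.632%) and 38 with the lower (0.200%). The median log2 fold change over all genes tested was 0.003691.

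The 10 genes with the strongest evidence for higher levels at d14+3 each had an adjusted p of 0.0677 with 23 libraries and passed with the 12 ExpOF libraries. Rora, a nuclear receptor of the circadian system and of many neuron types (mm10 chr9:68653786-69388246, plus strand), was at 60.9 CPM in the lowest d14 library, 77.5 in the median and 94.9 in the highest, and at 104.5, 129.8 and 173.9 CPM at d14+3. Every d14+3 library was above every d14 library, with a log2 fold change of 0.76 (SE 0.138) and an adjusted p of 0.0226 by edgeR in the 12 ExpOF libraries. Hr, the thyroid hormone-responsive corepressor hairless (chr14:70552212-70572900, plus strand), went from 32.8, 39.3 and 41.7 CPM to 48.6, 51.7 and 65.2 CPM in the same order, again with no overlap (log2 fold change 0.45, SE 0.0894). Slitrk6, a membrane protein of growing and synapsing neurites, was 0.77 higher on the log2 scale, with all 6 d14+3 libraries (26.0 to 39.5 CPM) above all 6 d14 libraries (16.2 to 24.6 CPM).

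Pdp1, the phosphatase that switches on pyruvate dehydrogenase, was 0.60 higher on the log2 scale, Scube2, a secreted Hedgehog pathway protein, 0.88 higher, and Cntn4, an axonal adhesion molecule, 0.34 higher, each without overlap between the days. Gabra4, a GABA-A receptor subunit (log2 fold change 0.75), Etv1, an ETS transcription factor (0.46), Socs2, which dampens growth hormone signalling (0.55), and Pcsk2, the prohormone convertase that cuts POMC and other neuropeptide precursors (0.30), had small overlaps in which the highest d14 library passed the lowest d14+3 library. For these 10 genes the July mice and the September mice showed the same direction, with log2 fold changes of 0.82 and 0.72 for Rora and 0.49 and 0.43 for Hr. The 10 were chosen from these same mice with both cohorts together, so this agreement was largely set by the choice and tests nothing. Pcsk2 overlaps genes annotated on the opposite strand, as do Vat1, Zbtb12, Myoc, Dlx1 and Otx2 among the genes below, and the strand setting of the counting was not given in the sources used here. The plot of the leading genes gives their fold changes with standard errors.

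**Figure D1:**
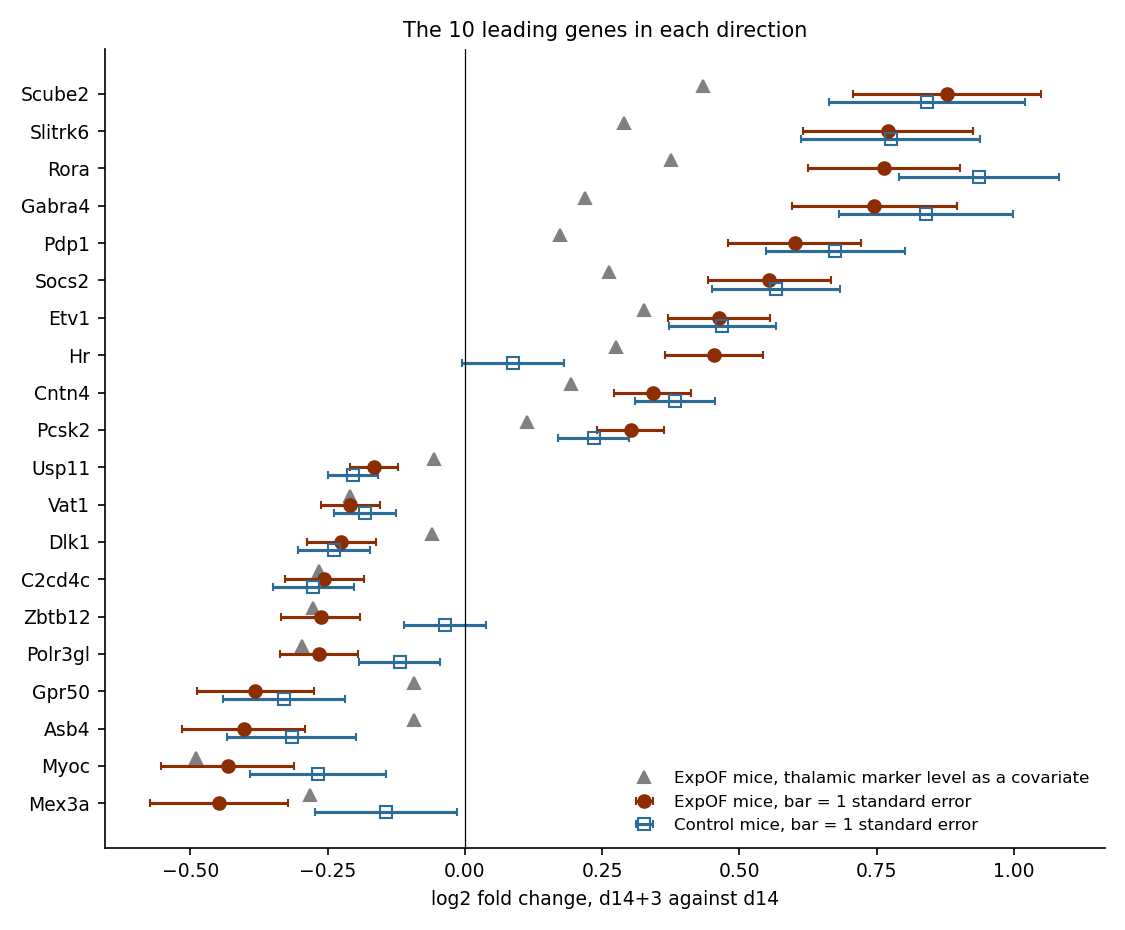
Log2 fold change from d14 to d14+3 (x axis) for the 10 leading genes in each direction (y axis), as filled circles in overfed mice and open squares in water-infused mice with bars of 1 standard error, and as triangles in overfed mice with the thalamic level of each library, described further on, in the model. Circles and squares lie close together for Rora (0.76 and 0.94) and apart for Hr (0.45 and 0.09), and the triangle of Rora is at 0.38.

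Among the genes that were lower, 3 passed in the 12 ExpOF libraries, and none with 23 libraries. Asb4, a ubiquitin ligase adaptor made by arcuate feeding neurons, was at 45.6, 47.1 and 58.9 CPM (lowest, median, highest) at d14 and at 30.8, 36.2 and 46.0 CPM at d14+3, a fall of 0.40 on the log2 scale with an adjusted p of 0.0484 by edgeR in those 12 libraries and 0.142 in the 23. Myoc, the gene of the secreted protein myocilin, was 14.7 to 17.9 CPM at d14 and 10.3 to 14.9 CPM at d14+3 and fell by 0.43 on the log2 scale (adjusted p = 0.0438 by edgeR in the 12 libraries). Both genes overlapped slightly between the days. The third, Rtl4, a retrotransposon-derived gene, was at 6.2 to 8.05 CPM at d14 and 4.24 to 6.61 CPM at d14+3.

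The other 8 genes with the strongest evidence for lower levels did not pass in either model, and their log2 fold changes lay between −0.45 and −0.17. Polr3gl, an RNA polymerase III subunit, had no overlap, at 27.2 to 32.0 CPM at d14 and 21.3 to 26.0 CPM at d14+3. C2cd4c, a C2 domain gene, also had none, at 24.6 to 28.1 CPM and then 18.5 to 24.6 CPM. Gpr50, an orphan relative of the melatonin receptors expressed by tanycytes of the third ventricle, was 0.38 lower on the log2 scale, and Dlk1, an imprinted Notch ligand relative, 0.22 lower. Vat1 (−0.21), Usp11 (−0.17), Zbtb12 (−0.26) and Mex3a (−0.45), which encode a vesicle-associated protein, a deubiquitinase, a zinc finger factor and an RNA-binding protein, completed the set.

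Thalamic transcripts were higher at d14+3. In bulk tissue, a larger share of cells of a type cannot be told apart from more RNA per cell. Among the markers of regions around the hypothalamus, 5 genes mark the thalamus (Tcf7l2, Prkcd, Rorb, Calb2 and Lhx9), and these were grouped after their values had been seen. All 5 were higher at d14+3, with a median log2 fold change of 0.86, and 4 had an unadjusted p under 0.05. Since the 5 were grouped with these values known, the counts describe the group and test nothing. The full list of 21 markers had 10 higher and 11 lower (median −0.09). At an unadjusted p under 0.05 it had 5 higher and 4 lower, beside 5.39% and 2.40% of all genes. Prkcd, a protein kinase C isoform that labels thalamic relay neurons (chr14:30595354-30626210, minus strand), was at 31.1, 55.7 and 91.4 CPM (lowest, median, highest) at d14 and at 116.8, 190.1 and 314.5 CPM at d14+3. The days did not overlap, and the log2 fold change was 1.86 (SE 0.456, edgeR adjusted p = 0.106 with 23 libraries and 0.0429 with the 12 ExpOF libraries). Tcf7l2, a Wnt pathway factor of thalamic and habenular neurons, was 0.89 higher on the log2 scale, Lhx9 0.86 and Rorb 0.20, none past the threshold in either model. Slc17a7, the vesicular glutamate transporter of cortical and thalamic neurons, was 1.90 higher on the log2 scale. It was at 4.02, 9.43 and 13.4 CPM at d14 and at 13.3, 30.0 and 70.8 CPM at d14+3. Slc17a7 is 1 of the 16 markers of other neighbouring regions, of which 5 were higher and 11 lower (median −0.23). At an unadjusted p under 0.05, 1 of the 16 was higher, Slc17a7 itself, and 4 were lower. The summed level of the 5 thalamic markers was 374.6, 409.6 and 538.3 CPM at d14 and 487.5, 636.0 and 837.1 CPM at d14+3, and no marker was at 0. Calb2, the most abundant of the 5 at both days, had medians of 272.3 and 302.1 CPM with overlapping days. Its log2 fold change was 0.16 in overfed mice (edgeR unadjusted p = 0.16) and −0.02 in Control mice, where the other 4 were higher at an unadjusted p under 0.05.

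The mean log2 CPM of the 5 markers served as a thalamic level for each library. It was 5.52 ± 0.31 at d14 and 6.32 ± 0.291 at d14+3 (SD, n = 6 each), a difference of 0.80 that was 0.794 in the July mice and 0.805 in the September mice. At d14 the lowest library was at 5.13 and the highest, replicate 4, at 6.04, and at d14+3 the lowest, replicate 3, was at 5.87 and the highest, replicate 6, at 6.67. The water-infused mice differed between the days by a similar amount, 5.59 ± 0.532 at d14 (n = 5) and 6.44 ± 0.335 at d14+3 (n = 6), a difference of 0.847.

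Transcription factors that specify hypothalamic nuclei were lower at d14+3. Of 27 such factors, 23 were lower and 4 higher, with a median log2 fold change of −0.25, and 12 had an unadjusted p under 0.05, each of them lower, beside 2.40% of all genes. Otp, needed for paraventricular and arcuate peptide neurons, was at 28.7, 33.5 and 36.1 CPM (lowest, median, highest) at d14 and at 18.0, 24.9 and 32.7 CPM at d14+3 (log2 fold change −0.39, edgeR adjusted p = 0.148). Vax1, a factor of the preoptic area and optic stalk, differed by −0.58 on the log2 scale, Bsx, which drives Agrp and Npy transcription in the arcuate nucleus, by −0.31, and Dlx1, a factor of GABAergic neurons, by −0.21. Sim1, which specifies the paraventricular nucleus, was at 14.1 to 18.4 CPM at d14 and 6.27 to 17.8 CPM at d14+3. Averaged over the 27 factors, the log2 CPM was 2.99, 3.01 and 3.14 at d14 and 2.65, 2.80 and 2.93 at d14+3, so the groups did not overlap. In the Control mice the 27 factors had a median log2 fold change of −0.19, with 8 lower at an unadjusted p under 0.05. Of these, 2 passed the adjusted threshold. With the thalamic level added to the model of 23 libraries, the median in overfed mice was −0.09, with 1 lower at that p. The plot of regional levels shows both measures for each mouse.

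**Figure D2:**
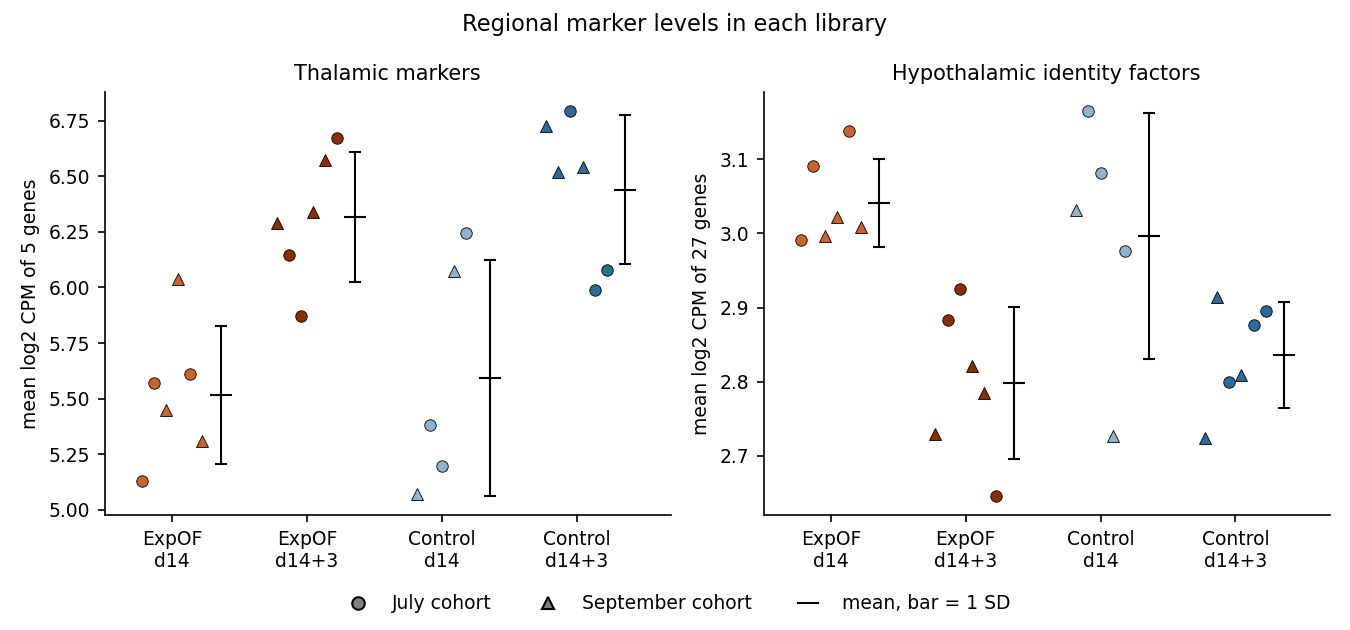
Mean log2 CPM of 5 thalamic markers (left) and of 27 hypothalamic identity factors (right) in each of 23 libraries by group, with July mice as circles, September mice as triangles and the mean with a bar of 1 SD beside them. ExpOF d14+3 libraries have thalamic levels from 5.87 to 6.67 against 5.13 to 6.04 at d14, and identity factor levels from 2.65 to 2.93 against 2.99 to 3.14 at d14.

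The fold changes of the 10 leading higher genes were smaller with the thalamic level in the model. With the thalamic level of each library added to the model of the 12 ExpOF libraries, an alternative chosen after the values had been seen, 0 of the 123 genes were still called and a single other gene, Jund, an AP-1 subunit, was called as lower. At an unadjusted p under 0.05 that model had 727 genes (4.06%), against 1671 (9.34%) without the level. In the model of 23 libraries the count at that p did not fall. It was 1577 genes (8.3%) with the level, 597 higher and 980 lower, against 1479 (7.79%) without it, 1024 higher and 455 lower. The thalamic level and the day are linked in these mice, so their parts cannot be told apart in full. With that level in the model of 23 libraries, the log2 fold change of Rora was 0.38 in place of 0.76, that of Gabra4 0.22 in place of 0.75 and that of Hr 0.28 in place of 0.45. Asb4 differed by −0.09 with the level and by −0.40 without it. Myoc differed by −0.49 with the level and by −0.43 without it. The part of the dissection in these differences was not tested.

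The same genes were examined over the same 3 days in the water-infused mice, which share no library with the overfed mice. There, 218 genes (1.15%) passed in the model of 23 libraries, 181 higher and 37 lower at d14+3 (24 genes without Control d14 replicate 2), and 2419 (12.7%) had an unadjusted p under 0.05, 1293 higher (6.81%) and 1126 lower (5.93%). Of the 123 genes called in the 12 ExpOF libraries, 120 differed in the same direction in the Control mice and 50 were called there. Rora had a log2 fold change of 0.94 in the Control mice (edgeR adjusted p = 0.0067), Slitrk6 0.78 (adjusted p = 0.0181), Scube2 0.84 (adjusted p = 0.0186) and Pdp1 0.68 (adjusted p = 0.0107). Hr, singled out after its values were seen, had a log2 fold change of 0.09 in the Control mice and 0.45 in the overfed mice, and the difference between the 2 changes had an unadjusted p of 0.00878. Across all 18992 genes the 2 sets of fold changes had a Pearson r of 0.201 and a Spearman rho of 0.145, given as a description since genes are not independent.

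No gene passed the test of the difference between the overfed and the water-infused change. edgeR and DESeq2 each called 0 genes for that difference, and edgeR gave a smallest adjusted p of 0.903 and 840 genes (4.42%) with an unadjusted p under 0.05, of which 528 (2.78%) were higher and 312 (1.64%) lower in the overfed change. The 3 genes with the smallest p for it were Mt2, Six4 and Ttr. Mt2, a metal-binding protein induced by glucocorticoids and zinc, was 0.34 higher at d14+3 in overfed mice and 0.47 lower in Control mice on the log2 scale (unadjusted p of the difference 0.000322). Six4, a homeobox factor, was 0.32 lower in overfed and 0.72 higher in Control mice (unadjusted p = 0.000508). Ttr, the transthyretin gene of the choroid plexus, had an unadjusted p of 0.000514 that rests on 1 library of each diet. ExpOF d14+3 replicate 4 was at 1204 CPM, with the other 11 ExpOF libraries between 1.01 and 23.9 CPM, and Control d14 replicate 5 was at 2889 CPM, with the other Control libraries between 1.06 and 29.9 CPM. The plot of overfed against control changes sets the 2 changes against each other for all genes.

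**Figure D3:**
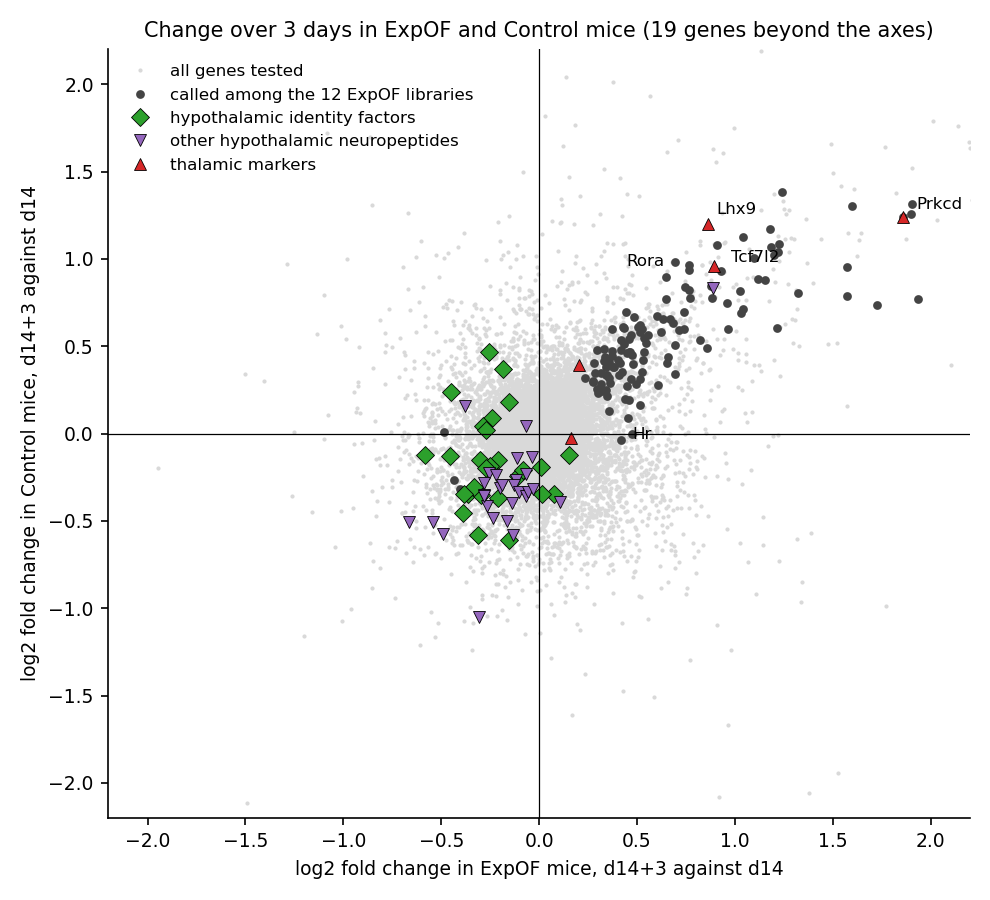
Log2 fold change from d14 to d14+3 in overfed mice (x axis) and in water-infused mice (y axis), with 1 grey point per gene tested, dark points for the genes called in the 12 ExpOF libraries, red triangles for thalamic markers, green diamonds for identity factors and purple triangles for other neuropeptides. The dark points lie almost all at positive values on both axes, Rora lies at 0.76 and 0.94 and Hr at 0.45 and 0.09, and 19 genes fall beyond the axis limits of 2.2.

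In the leptin-melanocortin circuit, 8 of 22 genes were higher and 14 lower at d14+3 (median log2 fold change −0.05), with 2 higher and 3 lower at an unadjusted p under 0.05, where 5.39% of all genes were higher and 2.40% lower. Pomc, the precursor of the appetite-restraining melanocortins (chr12:3954951-3960618, plus strand), was at 33.2, 44.8 and 54.6 CPM (lowest, median, highest) at d14 and at 19.5, 25.6 and 45.4 CPM at d14+3. 5 of the 6 d14+3 libraries were below the lowest d14 library, and replicate 5 was inside the d14 range. The log2 fold change was −0.68 (SE 0.203), with an edgeR adjusted p of 0.194, and it was −0.97 in the July mice and −0.40 in the September mice. The Control mice had the same value, −0.68, and with the thalamic level in the model the value in the overfed mice was −1.01. Cartpt, the CART precursor made by the same arcuate neurons and by others, was at 51.3 to 68.0 CPM at d14 and 38.8 to 66.9 CPM at d14+3 (log2 fold change −0.32).

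The libraries of the 2 days overlapped widely for both orexigenic peptides in the overfed mice. Npy (chr6:49822710-49829507, plus strand) was at 9.80, 11.2 and 13.0 CPM at d14 and at 10.0, 11.8 and 14.2 CPM at d14+3, with a log2 fold change of 0.08 (SE 0.119, exact permutation p = 0.405). Agrp (chr8:105566698-105637393, minus strand) was at 4.02, 4.38 and 5.51 CPM at d14 and at 3.74, 4.12 and 6.59 CPM at d14+3, with a log2 fold change of −0.01 (SE 0.175, exact permutation p = 0.885). Over the same days the water-infused mice had log2 fold changes of −0.46 for Npy (edgeR adjusted p = 0.0527) and −0.75 for Agrp (adjusted p = 0.0284), of which only the second passed, and their ranges were 18.3 to 28.6 CPM at d14 and 13.5 to 20.8 CPM at d14+3 for Npy, and 5.93 to 11.2 CPM and then 3.86 to 6.99 CPM for Agrp. The difference between the overfed and the water-infused change had an unadjusted p of 0.00353 for Npy and 0.00598 for Agrp, and neither passed the adjustment. Agrp overlaps Ctcf and Ripor1 on the opposite strand, and with no stated strand setting part of its counts may belong to them.

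Downstream of leptin, Stat3 was at 91.5, 95.3 and 97.3 CPM at d14 and at 83.9, 86.3 and 92.7 CPM at d14+3, with a log2 fold change of −0.12 (SE 0.0434, edgeR adjusted p = 0.333). It overlaps Stat5a on the opposite strand. Lepr, the leptin receptor, was at 3.99 to 5.63 CPM and then 3.19 to 6.23 CPM, and Mc4r, the melanocortin 4 receptor, at 3.61 to 5.41 CPM and then 3.18 to 4.34 CPM, both with log2 fold changes inside their standard errors of 0.196 and 0.117. Among the enzymes that mature neuropeptides, Pcsk2 was at 260.3, 275.3 and 304.7 CPM at d14 and at 303.2, 333.3 and 386.3 CPM at d14+3, and the carboxypeptidase Cpe was 0.18 higher on the log2 scale (edgeR adjusted p = 0.55). Bdnf, a neurotrophin that acts below the melanocortin receptor, was 0.15 higher (adjusted p = 0.789). The plot of the circuit shows the libraries of both diets.

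**Figure D4:**
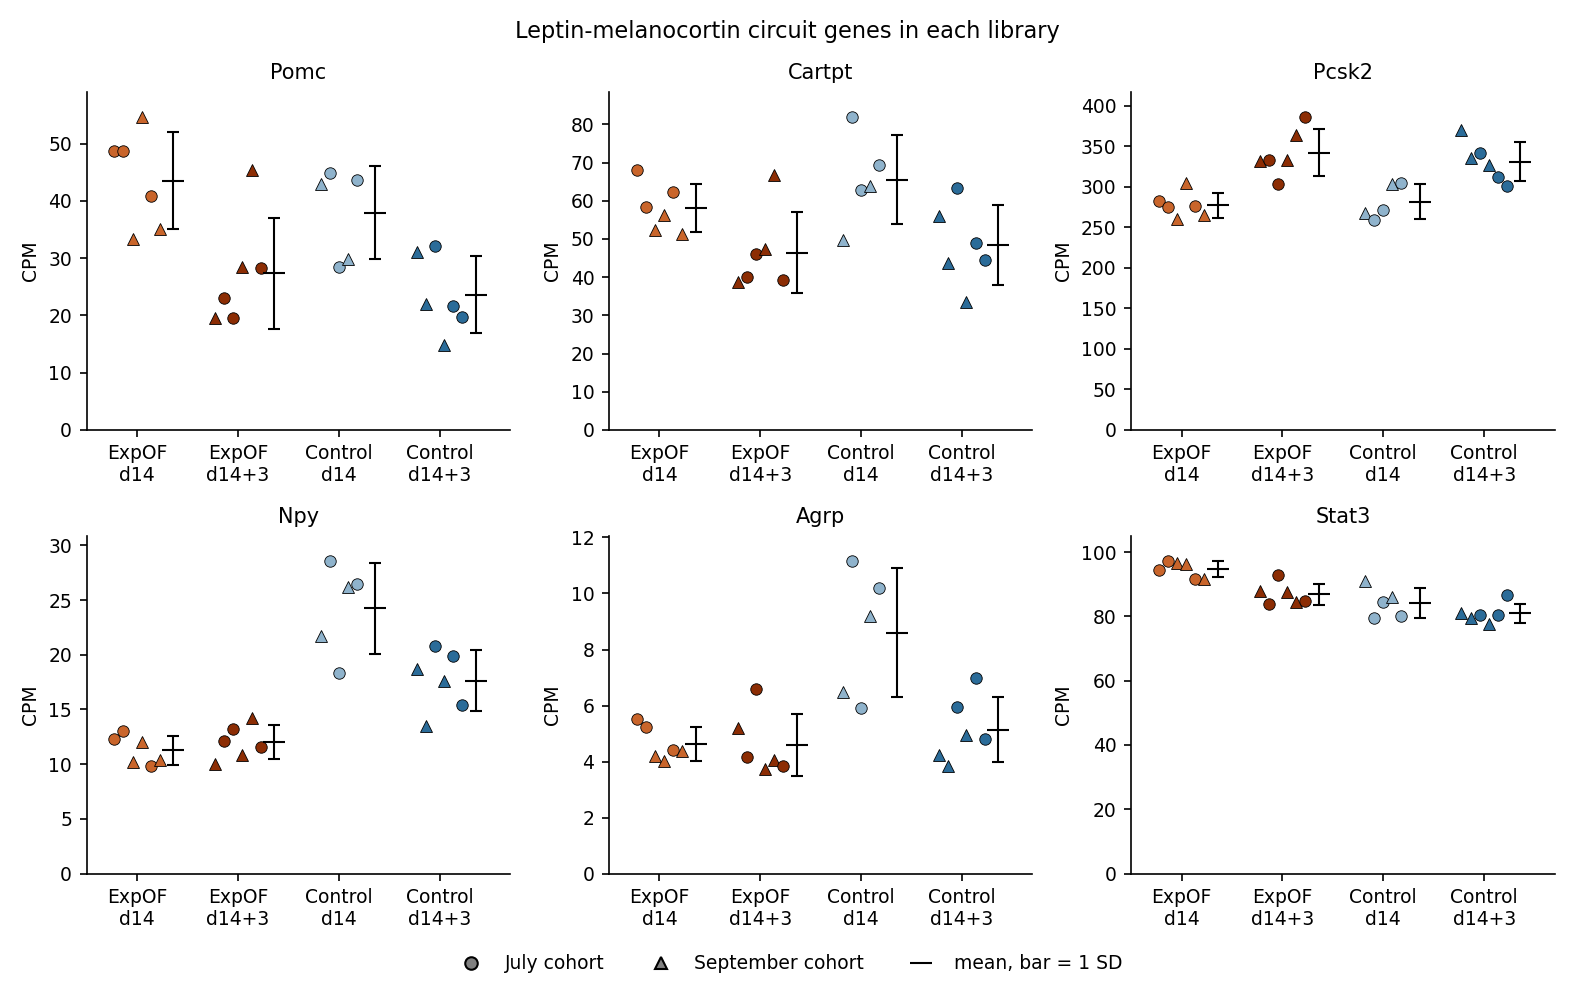
CPM of 6 genes of the leptin-melanocortin circuit in each library of the 4 groups, with July mice as circles, September mice as triangles and the group mean with a bar of 1 SD. In overfed mice Pomc has a median of 44.8 CPM at d14 and 25.6 CPM at d14+3, while Npy and Agrp overlap between the days.

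Neuropeptide genes outside this circuit were mostly lower at d14+3. Of 29 measured from a list of 32, 27 were lower and 2 higher, with a median log2 fold change of −0.17, and 8 were lower and 1 higher at an unadjusted p under 0.05, beside 2.40% lower and 5.39% higher of all genes. Npvf, the RFamide-related peptide of the dorsomedial nucleus, did not overlap between the days, at 7.16 to 10.8 CPM at d14 and 3.24 to 6.91 CPM at d14+3 (log2 fold change −0.49, edgeR adjusted p = 0.289). Pdyn, the dynorphin precursor (−0.27), Penk, the enkephalin precursor (−0.25), and Trh, the thyrotropin-releasing hormone precursor (−0.28), differed in the same direction without passing. The 1 gene on the higher side at that p, Cck, which cortical neurons also make, had a log2 fold change of 0.89. The Control mice had a median of −0.33 over the same 29 genes, and with the thalamic level in the model the median in overfed mice was −0.18. Of 26 receptors for gut and fat hormones, 8 were higher and 18 lower (median −0.11), with 1 higher and 3 lower at an unadjusted p under 0.05, against 5.39% and 2.40% of all genes. Calcr, the calcitonin and amylin receptor, was −0.27 on the log2 scale, and its partner Ramp3 was 1.62, with 10.7 to 32.8 CPM at d14 and 26.8 to 95.4 CPM at d14+3, a value that became −0.01 with the thalamic level in the model.

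Of 19 clock genes, 12 were higher and 7 lower at d14+3 (median log2 fold change 0.12), and 9 were higher with none lower at an unadjusted p under 0.05, beside 5.39% and 2.40% of all genes. Rora, Npas2 and Hlf passed in the 12 ExpOF libraries. Npas2, the partner of BMAL1 in forebrain, had no overlap, at 9.80 to 12.2 CPM at d14 and 12.5 to 20.4 CPM at d14+3 (log2 fold change 0.53, edgeR adjusted p = 0.039 in the 12 libraries). Hlf, an output factor of the clock, was 0.37 higher on the log2 scale and Bhlhe40, a repressor in it, 0.29. In the Control mice the median of the list was 0.08, with 4 genes higher and none lower at an unadjusted p under 0.05. Of these, Rora (0.94), Hlf (0.47) and Rorb (0.39) passed the adjusted threshold. With the thalamic level in the model the median of the list in overfed mice was 0.01, and the values of Npas2, Hlf and Bhlhe40 were 0.11, 0.04 and 0.01. Rorb is in this list and is also 1 of the 5 genes that make up the thalamic level. The methods place the dissection of peripheral tissues of these groups in the morning, and give no hour and no separate time for the brain.

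Of 30 genes of synaptic vesicle release, 22 were higher and 8 lower (median 0.09), with 7 higher and none lower at an unadjusted p under 0.05. For this list and the 3 that follow, the shares over all genes were 5.39% higher and 2.40% lower. Sv2b, a vesicle glycoprotein, was at 94.7 to 121.1 CPM at d14 and 119.4 to 153.0 CPM at d14+3 (log2 fold change 0.34, edgeR adjusted p = 0.0372 in the 12 libraries and 0.0679 in the 23). Slc17a6, the glutamate transporter of hypothalamic and thalamic neurons, was 0.22 higher and Cplx1, a release clamp, 0.38 higher. Among 15 neuron markers, 10 were higher and 5 lower (median 0.07), with 6 higher and none lower at an unadjusted p under 0.05, including the neurofilaments Nefh (0.39) and Nefm (0.26) and the calcium sensor Syt1 (0.14). Nefm overlaps Nefl on the opposite strand. Of 51 synaptic adhesion and scaffold genes, 23 were higher and 28 lower (median −0.03), with 7 higher and 3 lower at an unadjusted p under 0.05. Shank3, a postsynaptic scaffold, was 0.65 higher, Dlgap1, its binding partner, 0.22 higher, and Nlgn2, the adhesion molecule of inhibitory synapses, 0.14 lower, all on the log2 scale and none past the threshold. With the thalamic level in the model, Shank3 (−0.0846), Cplx1 (−0.0706), Nefh (−0.0785) and Nefm (−0.0839) were on the lower side. Of 23 immediate early genes, 15 were higher and 8 lower (median 0.08), with Ier2 (0.71) and Dusp6 (0.26) higher at an unadjusted p under 0.05 and both on the lower side, −0.17 and −0.14, with the thalamic level in the model. In the Control mice the medians were 0.06 for vesicle release, 0.11 for neuron markers, 0.08 for adhesion and scaffold and 0.17 for immediate early genes. At an unadjusted p under 0.05 these lists had 10, 6, 14 and 6 higher genes there, and 1 lower, in the adhesion list. Slc17a6 (0.29, edgeR adjusted p = 0.0198) and Syt1 (0.27, adjusted p = 0.0181) passed in the Control mice. The plot of list medians sets all lists side by side.

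**Figure D5:**
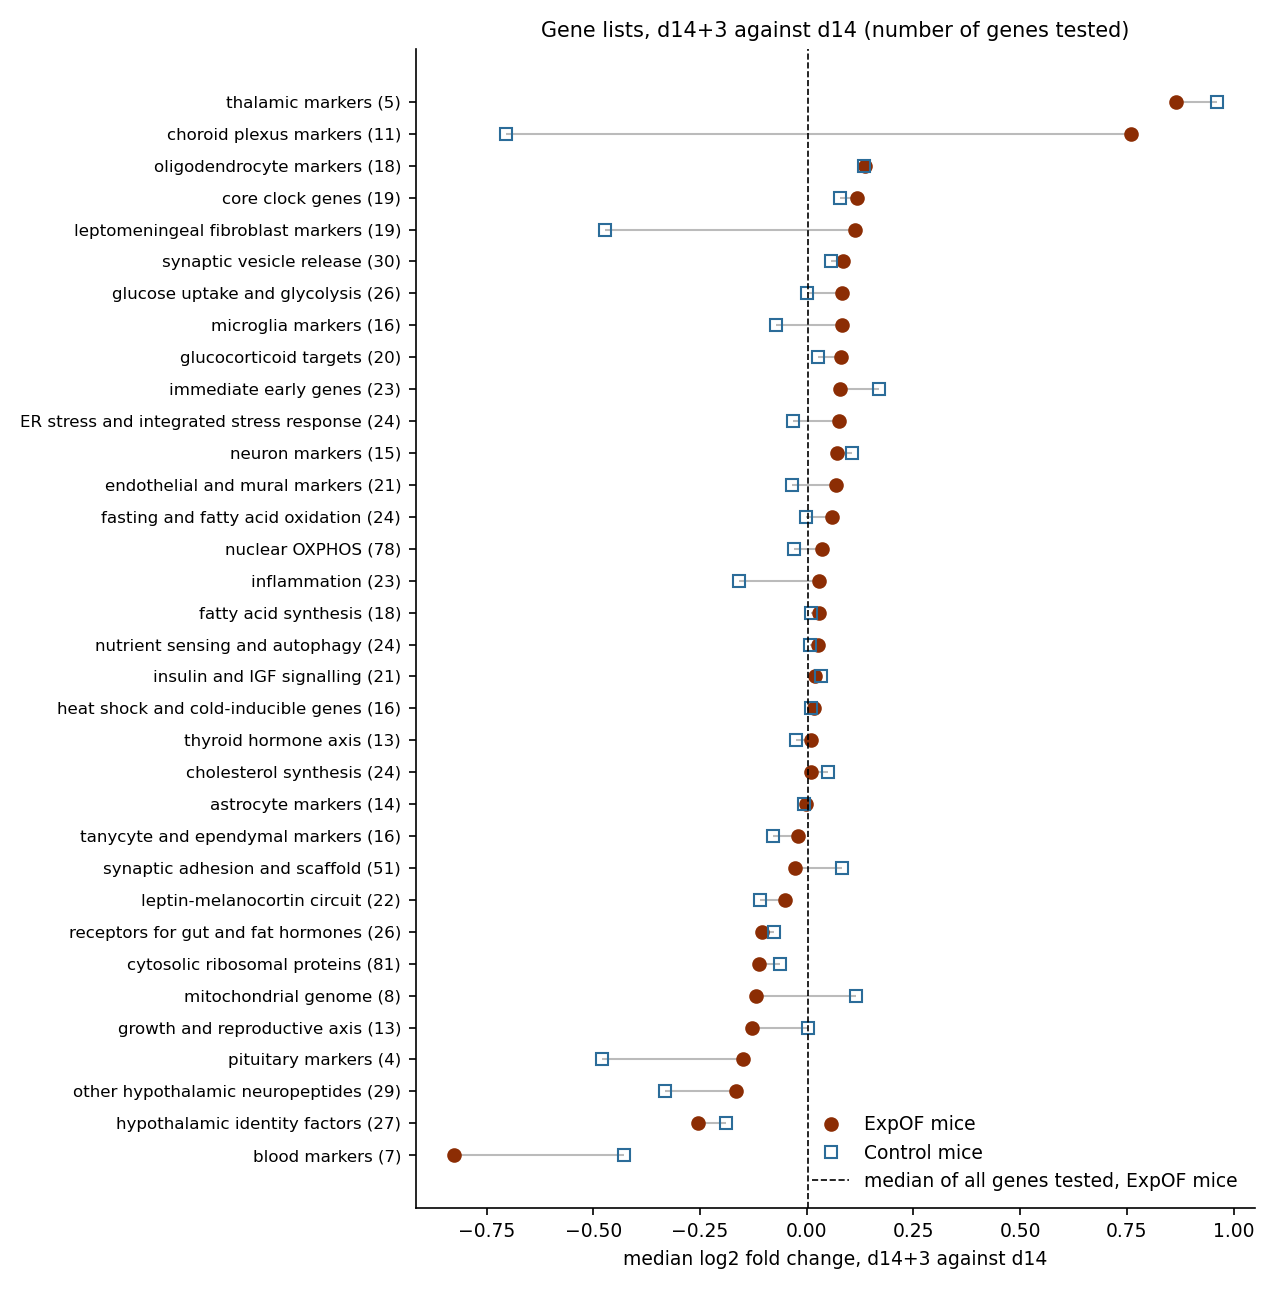
Median log2 fold change from d14 to d14+3 (x axis) of each gene list, with the number of genes tested in brackets, as filled circles in overfed mice and open squares in water-infused mice, and a dashed line at the median of all genes tested in overfed mice (0.003691). In overfed mice the thalamic markers are at 0.86 and the identity factors at −0.25, and the choroid plexus markers are the list with the widest gap between the diets.

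No gene on the lists of fasting, glucose, lipid and nutrient metabolism passed the edgeR test in the 12 or the 23 libraries. Of 24 genes of fasting and fatty acid oxidation, 19 were higher and 5 lower (median 0.06). Slc16a1, the monocarboxylate transporter that carries ketone bodies and lactate, was 0.27 higher on the log2 scale (edgeR adjusted p = 0.0865) against 0.05 in the Control mice (unadjusted p of the difference 0.0284), and Oxct1, which uses ketone bodies, was 0.10 higher.

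Of 26 genes of glucose uptake and glycolysis, 20 were higher and 6 lower (median 0.08). In the 21 genes of insulin and IGF signalling (median 0.02), 3 were higher at an unadjusted p under 0.05, as 5.39% of all genes were, with Igf1 at 0.58 and Igfbp2 at 1.03 on the log2 scale. Igf1 was at 0.51 in Control mice and at 0.40 in overfed mice with the thalamic level in the model. Igfbp2 was at −0.63 in Control mice and at −0.18 in overfed mice with that level. Igf1 overlaps Igf1os on the opposite strand, and Igfbp2 is also a marker of the meninges. For the lists that follow in this paragraph, the shares over all genes at an unadjusted p under 0.05 were 5.39% higher and 2.40% lower. Cholesterol synthesis (24 genes, median 0.01) had 1 gene higher, Hsd17b7 at 0.29, nutrient sensing and autophagy (24 genes, median 0.03) had Bnip3 at 0.13 and Depdc5 at 0.15, the stress response of the endoplasmic reticulum (24 genes, median 0.08) had Psat1 at 0.15, and the heat shock genes (16 genes, median 0.02) had Hspa8 at 0.14, each at an unadjusted p under 0.05. Fatty acid synthesis (18 genes, median 0.03) and inflammation (23 measured genes, median 0.03) had none. Of 20 glucocorticoid targets 17 were higher and 3 lower (median 0.08), with only Mt2 at an unadjusted p under 0.05. The thyroid hormone axis (13 measured genes, median 0.01) had 3 genes higher at that p, Hr, Ttr and Dio2, the deiodinase of tanycytes and astrocytes (0.26). In Control mice Dio2 was at 0.61 (edgeR adjusted p = 0.0186), Hr at 0.09 and Ttr at −5.58. With the thalamic level in the model Dio2 was at 0.01 in overfed mice. The growth and reproductive axis had 12 of 13 measured genes lower (median −0.13), but Igf1, which was higher, was the only one at that p.

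Genes of the cytosolic ribosome had medians of opposite sign in the July and the September mice. Over 81 ribosomal protein genes, 69 were lower and 12 higher, with a median log2 fold change of −0.11 that was −0.35 in July and 0.11 in September. At an unadjusted p under 0.05 there were 3 lower genes, Rps15a (−0.16), Rpl22l1 (−0.28) and Rpl24 (−0.33), and no higher ones, where 2.40% of all genes were lower. Of 78 nuclear genes of oxidative phosphorylation, 48 were higher and 30 lower (median 0.03) and none had an unadjusted p under 0.05, while the 8 tested genes of the mitochondrial genome were all lower (median −0.12) without any at that p. With the thalamic level in the model both nuclear lists were on the lower side, −0.41 for the ribosomal proteins and −0.27 for oxidative phosphorylation.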

How the data were processed

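Poly-A RNA of the hypothalamus was sequenced from 24 mice. According to the methods and the labels, the authors aligned the reads with STAR to mm10, counted them per GENCODE gene with featureCounts 1.6.4 and deposited raw read counts for 55471 genes, the values used here. All deposited columns were used (0 were left over), except the Control d14 library that the study had removed. edgeR 4.0.16 in R 4.3.3 kept genes with filterByExpr (minimum count 10, minimum total 15), scaled with TMM and tested 1 factor of 4 groups with robust quasi-likelihood fits, 2-sided, with Benjamini-Hochberg adjustment at 0.05. CPM are TMM-scaled, and log2 CPM carry a prior count of 2. Single values were tested with exact 2-sided permutation tests over 6 and 6 libraries. Totals of 8928182 to 33217143 counts bound the precision of low genes. On simulated counts for this comparison with 23 libraries and 18784 genes, 95 of 100 genes changed by a log2 of 1 and 71 of 100 changed by 0.5 were recovered, with 3 other calls. The changed genes were drawn at random without the lowest expressed ones. Each gene varied independently, with no level shared within a library such as the thalamic level. The simulation therefore does not show how many real changes the test would have missed.

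Named genes were the leptin-melanocortin list, the 10 genes per direction with the largest fold change among those past the threshold, filled with the smallest p-values where fewer passed and with a mean of at least 50 counts, up to 4 genes per list, and 3 genes for the difference between diets. Gene symbols came from the GENCODE annotation, for 55144 of the genes. Some items that this rule names are not reported here. Members and lists were chosen with earlier results of these data known. Alternatives were DESeq2 1.42.0, its size factors, other count filters, cohorts, covariates, a replicate block, the 12 ExpOF libraries alone and leaving out each library. The thalamic covariate and the removal of single Control libraries for the overfed comparison were chosen after seeing the data. Each library is a separate mouse, and no pair of ExpOF libraries agreed within sampling noise (smallest chi-square per degree of freedom 2.22 over 30 pairs).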

Additional observations from a re-analysis of the deposited data

Results flagged for a closer look

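In 30 of 182 groups of 6 ExpOF values, 1 library lay further from the rest than Dixon's test allows at its 95% critical value, which chance would do in about 1 of 20 groups. None of these values was left out.

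At d14, replicate 4, which also had the highest thalamic level of that day, gave 10 of them. It was highest for Cpe (2234 CPM), Bhlhe40 (89.55), Slc17a6 (349.1), Nefh (102.8), Mobp (1049), Mbp (2967), Bcas1 (193.3), Lhx2 (6.848) and the pituitary hormone Gh (16.2), and lowest for Usp11 (400.2). Replicate 5, the library with the lowest total count, was highest for Mc4r (5.409) and for the red blood cell genes Alas2 (13.97) and Hbb-bt (22.31), and lowest for Hr (32.79) and Mt2 (19.5). Replicate 1 was highest for Asb4 (58.87).

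At d14+3, replicate 6, with the highest thalamic level of all ExpOF libraries, was highest for Hr (65.23), Sv2b (153), Lhx2 (11.73) and Depdc5 (82.14), and lowest for Npvf (3.241) and Rpl22l1 (39.18). Replicate 4 was highest for the choroid plexus genes Ttr (1204), Folr1 (9.751) and Slc4a5 (7.109). Replicate 5 was highest for Pomc (45.39), Cartpt (66.85) and Gh (0.2201). Replicate 3 was highest for Dlx1 (48.89) and lowest for Hlf (111.9). The cause of these values was not tested.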

How the results depend on the processing

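The number of genes called in overfed mice, 0, rose to 202 with DESeq2, 123 with only the 12 ExpOF libraries, 78 with cohort and extraction round as covariates and 28 with at least 10 counts in every library, and to 1 with the thalamic level in the 12-library model. Leaving out single libraries gave 0 to 157 calls, 157 without ExpOF d14+3 replicate 3, 87 without ExpOF d14 replicate 4, 57 without Control d14 replicate 5 and 42 without Control d14 replicate 2. All 24 libraries, each cohort alone and the RNA integrity number gave 0. The Control count, 218, became 531 with DESeq2, 251 with the RNA integrity number as a covariate, 0 in July alone, 0 in September alone and 0 with the thalamic level. With the thalamic level the smallest edgeR adjusted p was 0.0686. The Control genes at an unadjusted p under 0.05 were then 5826 (30.7%), 2947 higher and 2879 lower, against 2419 (12.7%) without it. The Control count was 24 to 313 without single libraries, with 24 without Control d14 replicate 2, 58 without its replicate 3, and 109, 51 and 47 without Control d14+3 replicates 1, 2 and 4. The difference between diets had 0 calls throughout. Same-numbered libraries did not deviate together (correlations −0.107 to 0.0851 over 18992 genes), so the numbers do not pair the mice. With the replicate block edgeR called 0 genes in overfed and 33 in Control mice, with 1239 in overfed mice at an unadjusted p under 0.05.

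With the thalamic level in the model, these log2 fold changes changed sign: Cpe −0.0327, Npy −0.0445, Agrp 0.0505, Lepr 0.21, Mc4r 0.0578, Sim1 0.21, Slc17a7 −0.0898, Ramp3 −0.0139, Calcr 0.0275, Cplx1 −0.0706, Shank3 −0.0846, Nefh −0.0785, Nefm −0.0839, Mbp −0.0453, Igfbp2 −0.18, Lhx2 −0.23, Ier2 −0.17, Dusp6 −0.14, Otx2 −0.0455 and Folr1 −0.0421. Among 1991 other fits of 87 named genes 10 changed sign, all near 0: Agrp (0.0556), Lepr (0.00287) and Hbb-bt (0.0171) in September, and without single libraries Agrp (−0.134 to 0.0632) and Lepr (−0.129 to 0.0488). The causes were not tested. With 6 mice a day, shallow genes such as Agrp and low markers carry wide errors, and small changes in few neurons may go undetected in whole hypothalamus.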

Other observations

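Markers of glia and vessels had medians nearer to 0 than the 5 thalamic markers, which were grouped after their values had been seen. For each list in this section, the shares over all genes at an unadjusted p under 0.05 were 5.39% higher and 2.40% lower. Of 18 oligodendrocyte markers, 16 were higher and 2 lower at d14+3 (median log2 fold change 0.14, and 0.13 in Control mice), with 3 higher at an unadjusted p under 0.05. These were the myelin genes Mobp (0.22) and Mbp (0.21) and the oligodendrocyte gene Bcas1 (0.20), and the summed level of the list was 6724 to 8015 CPM at d14 and 7267 to 8983 CPM at d14+3. The medians were −0.002 over 14 astrocyte markers, 0.08 over 16 microglia markers, 15 of them higher, and 0.07 over 21 endothelial and mural markers, with none at an unadjusted p under 0.05 in any of the 3 lists. Of 16 tanycyte and ependymal markers, 7 were higher and 9 lower (median −0.02), with 3 higher at that p. Adm, the vasodilator peptide adrenomedullin, was at a median of 0.802 CPM at d14 and 1.42 CPM at d14+3 without overlap, a log2 fold change of 1.02 that was 0.46 in July and 1.44 in September. Also higher at an unadjusted p under 0.05 were Lhx2 (0.43, and 0.64 in Control mice) and Dio2 (0.26, and 0.61 in Control mice).

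Markers of tissues that border the hypothalamus had larger medians, some of which rested on single libraries or 1 cohort. Of 11 choroid plexus markers measured, 10 were higher at d14+3 (median 0.76, and −0.70 in Control mice), with Otx2 at 0.76, Slc4a5 at 3.54 and Folr1 at 1.84, and the median was 0.11 without ExpOF d14+3 replicate 4. The summed level was 309.7 to 352.0 CPM at d14 and 323.0 to 2050.0 CPM at d14+3. Of 7 blood markers, 5 were lower (median −0.83), with Alas2 (−0.83), Hbb-bt (−0.90) and Hba-a1 (−0.95) among the 4 at an unadjusted p under 0.05, and the median was −1.66 in July and −0.11 in September. The 19 leptomeningeal markers had a median of 0.11 in overfed and −0.47 in Control mice, with 1 higher and 1 lower at that p. The 4 pituitary markers tested had a median of −0.15, with Gh lower at that p and at 0 in 4 of the 6 d14+3 libraries. The 16 markers of other neighbouring regions had a median of −0.23 in overfed and 0.18 in Control mice, with 1 higher and 4 lower at that p.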
